A study of Mus musculus with 3 samples.

Results

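CTCF peaks that lie outside genes, between neighbouring protein-coding genes read in the same direction, are described here for mouse hematopoietic stem and progenitor cells. Of the 18945 CTCF peaks in the list, 3436 (18.1%) met the rule. The rule took peaks whose midpoint fell outside all gene records of GENCODE M21, whose nearest protein-coding genes to the left and to the right were on the same strand (tandem genes), with a transcription start site (TSS) within 50 kb and none within 1 kb of the peak edges. The steps left 8678 peaks with a midpoint outside genes and 4531 of those between tandem genes, from which 727 were dropped for a TSS within 1 kb and 368 for having none within 50 kb. The genes ran on the plus strand at 1720 of the members and on the minus strand at 1716. The rule used positions and gene annotation alone, so fold enrichment, motif content and motif direction were free to vary. Place within the gap was limited in part, so it is set beside the sequence that could meet the rule. The same rules on distance gave 1255 peaks between convergent genes (which end toward each other), 1927 between divergent genes (which start away from each other) and 12327 other peaks.

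The data came from CTCF chromatin immunoprecipitation with sequencing (ChIP-seq) in LSK cells, which are bone marrow cells sorted as lineage-negative, Sca1+ and Kit+, a mixture of stem cells and multipotent progenitors, from adult C57BL6 mice without genetic modification. There was 1 CTCF library, so no value has a replicate. A library of LSK input chromatin and a library of input chromatin from megakaryocyte-erythroid progenitors (MEP) were not analysed here. No expression values were analysed, so the sort could not be checked against marker genes.

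CTCF is a zinc finger protein that binds DNA with many fingers in a row and reads an asymmetric motif, so a bound site has a direction. It stops cohesin, the ring complex that extrudes chromatin loops, and the anchors of loops usually carry motifs that face each other. In blood progenitors, as in other tissues, CTCF sites mark domain boundaries and insulate enhancers from promoters of neighbouring genes. Between tandem genes the sequence runs from the 3′ end of the upstream gene to the 5′ end of the downstream gene, so a motif there is either on the strand of both genes or on the opposite strand. The core CTCF motif used here is 12 bases long and was searched on both strands. It reads from its C-rich start to its G-rich end, and it is said to point in that direction.

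Matches to the core motif within the strongest members are given first. In each line below, the core is in capitals with 20 bases of GRCm38.p6 on either side, written 5′ to 3′ on the strand of the motif, and a core base that departs from the motif is in lower case. The sites are those of members among the 10 with the highest fold enrichment, and they are shown because most of them held the core only with 1 mismatch.
Mtx2 to Hnrnpa3 (chr2:75605865-75605916, plus strand, strand of the genes, 1 mismatch): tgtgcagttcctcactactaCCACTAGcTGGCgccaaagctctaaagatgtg
Ivd to Bahd1 (chr2:118883555-118883606, minus strand, opposite strand, 1 mismatch): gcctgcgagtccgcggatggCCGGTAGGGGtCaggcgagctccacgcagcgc
Chrm3 to Zmynd11 (chr13:9846988-9847039, minus strand, strand of the genes, 1 mismatch): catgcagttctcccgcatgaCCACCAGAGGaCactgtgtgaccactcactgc
Tbx5 to Rbm19 (chr5:120102958-120103009, minus strand, opposite strand, no mismatch): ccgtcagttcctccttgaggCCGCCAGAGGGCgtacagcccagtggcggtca
Bmf to Srp14 (chr2:118487117-118487168, plus strand, opposite strand, 1 mismatch): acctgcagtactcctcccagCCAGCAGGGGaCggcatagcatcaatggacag
Hif1an to Pax2 (chr19:44582457-44582508, minus strand, opposite strand, no mismatch): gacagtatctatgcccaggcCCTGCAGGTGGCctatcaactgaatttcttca
Kiss1r to Arid3a (chr10:79925392-79925443, minus strand, opposite strand, 1 mismatch): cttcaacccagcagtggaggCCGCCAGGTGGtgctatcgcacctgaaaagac
Foxf2 to Foxc1 (chr13:31792662-31792713, plus strand, strand of the genes, 1 mismatch): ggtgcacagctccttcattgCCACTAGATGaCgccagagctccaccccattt
Rpn1 to Gata2 (chr6:88106107-88106158, minus strand, opposite strand, 1 mismatch): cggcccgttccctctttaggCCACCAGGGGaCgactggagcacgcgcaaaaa

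Fold enrichment was read, from the layout and values of a list without a header, as the linear ratio of ChIP signal to background that the peak caller gives. The highest, 42.42, was found at the member between Mtx2, which encodes a protein of the mitochondrial outer membrane, and Hnrnpa3, which encodes an RNA-binding protein. That peak, at chr2:75605482-75606362, lay 53339 bp from the 5′ end of Hnrnpa3 and 727490 bp from the 3′ end of Mtx2, in a gap of 780829 bp. Here and below, distances to gene ends are taken from the midpoint of the peak and distances to a TSS from its nearer edge. The next, with a fold enrichment of 40.13, was 624 bp past the 3′ end of Ivd, which encodes an enzyme of leucine breakdown. Between Chrm3, a muscarinic receptor gene, and Zmynd11, which encodes a chromatin reader, it was 36.87. The member between the genes for the limb and heart factor Tbx5 and the ribosome biogenesis protein Rbm19 reached 36.55, and no other of the 10 held 2 core motifs. The member near Plrg1, a gene of the splicing machinery, reached 33.93 with no core motif even when 1 mismatch was allowed. At Gata2, which encodes a transcription factor that stem cells need, the member had a fold enrichment of 32.96 and lay 823 bp past the 3′ end of Rpn1 and 87763 bp from the 5′ end of Gata2. Members at Hif1an and Pax2 (33.61), Bmf and Srp14 (36.22), Kiss1r and Arid3a (32.96) and Foxf2 and Foxc1 (32.96) completed the set. Of these 10, 2 held the core motif without a mismatch, compared with 35.8% of all members.

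Over all members the median fold enrichment was 10.12 (95% order-statistic interval 10.12 to 10.44, quartiles 7.83 and 13.70, range 3.12 to 42.42). The medians between convergent genes and between divergent genes were both 10.44, and that of the other peaks was 10.12. The peaks were alike in width, with a median of 720 bp between tandem genes, 720 bp between convergent genes and 712 bp between divergent genes. Median G+C content was 46.4%, 46.8% and 45.7% in the same order. All intervals printed are 95% intervals for counting error alone, and members of 1 gap are not independent of each other. Values just inside the limits of the rule were a fold enrichment of 24.80 at 1009 bp from a TSS (between Ehd1 and Cdc42bpg) and 9.46 at 49909 bp (between Mtpn and Fam180a). Just outside, they were 6.20 at 999 bp (between Wdr43 and Togaram2) and 13.38 at 50029 bp (between Pcdh1 and Arap3).

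The core motif stood in 1230 of the 3436 members, or 35.8% (Wilson interval 34.2 to 37.4). With 1 mismatch allowed, 84.0% held a match. In the central 200 bp the shares were 32.6% without a mismatch and 76.0% with up to 1, whereas windows of the same length 10 kb to the left held a core in 0.233% and 4.66%, and windows 10 kb to the right in 0.407% and 5.47%. Where a member held exactly 1 core, its middle was a median of 28 bp from the middle of the peak, and 74.1% of such cores were within 50 bp. Peaks between convergent genes held the core more often, at 39.5% (tandem minus convergent −3.72 percentage points, Newcombe interval −6.88 to −0.603). The difference from peaks between divergent genes (34.4%) was 1.39 points, with an interval of −1.28 to 4.03 that includes 0. With 1 mismatch allowed the shares were 84.0% between tandem and 84.0% between convergent genes, so the difference applied to the exact core. With the members cut into 5 equal groups by fold enrichment, the share with a core was 27.8% (24.5 to 31.2) in the weakest group and 41.5% (37.9 to 45.2) in the strongest. Other motifs were searched in the central 200 bp, on both strands. The GATA motif AGATAA was in 8.15% of the members and in 11.1% and 10.7% of the windows 10 kb to the left and right, the RUNX motif TGTGGT in 17.2% against 15.3% and 15.1%, and the ETS motif GGAAGT in 12.2% against 12.0% and 11.8%. In the 15509 peaks that were not members the shares were 7.53%, 16.0% and 12.2% in the same order, so these values were near those of the whole list. A match is a description of the letters and not a bound site.

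Not all forms of the core were occupied alike. Eligible sequence (positions between tandem genes where a peak of median width could meet the rule) held 4009 core motifs, of which 1267, or 31.6% (30.2 to 33.1), lay in a peak. The motif allows 64 forms, and 33 of them had 40 or more sites. The forms below are printed because they span the range of occupied shares among these 33, to which every rank given for a form is limited, and their capitals are the whole core.
Most occupied form of the 33: CCACCAGGGGGC
Next: CCACTAGGGGGC
Most frequent form of all: CCAGCAGAGGGC
Rarely occupied form: CCTGTAGATGGC
Least occupied form of the 33: CCCCCAGAGGGC
For the most occupied of the 33, CCACCAGGGGGC, 111 of 143 sites lay in a peak (77.6%, 70.1 to 83.7), and for CCACTAGGGGGC 65 of 85 did (76.5%, 66.4 to 84.2). The most frequent form, CCAGCAGAGGGC, had 366 sites, of which 27.3% (23.0 to 32.1) were in a peak. CCTGTAGATGGC was in a peak at 3 of 119 sites (2.52%, 0.861 to 7.15) and CCCCCAGAGGGC at 1 of 48 (2.08%, 0.369 to 10.9). All of these have the same match score under the search, so the search alone did not separate them. Cores in repeats, the soft-masked bases of the assembly, were in a peak at 92 of 757 sites (12.2%), and cores outside repeats at 1175 of 3252 (36.1%, 34.5 to 37.8). Cores with a CpG, the dinucleotide that can be methylated, were in a peak at 28.8% of 320 sites and those without at 31.9%, a difference of −3.10 points with an interval of −8.03 to 2.29.

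The direction of the motif differed between the ends of the gap. Of the 1197 members with exactly 1 core, 677 (56.6%, 53.7 to 59.3) had it on the strand of the genes, that is, pointing from the upstream gene toward the downstream gene. Core sites in no peak were on that strand at 52.0% (50.1 to 53.8), which is 4.70 points below the 56.7% of sites in a peak (interval of the difference 1.38 to 7.99). The share was 55.7% for genes on the plus strand and 57.5% for genes on the minus strand, and over all of these members 49.4% of the cores were on the plus strand of the assembly. It exceeded 50% on 17 of 20 chromosomes. Splitting the members by the middle of the gap was done after the values were seen. On the side of the promoter 45.7% (41.3 to 50.1) of single cores were on the strand of the genes, and the share exceeded 50% only on the side of the 3′ end. There, 454 of 709 single cores (64.0%, 60.4 to 67.5) pointed away from the upstream gene and into the gap, and this share exceeded 50% on 20 of 20 chromosomes. On the side of the promoter, 265 of 488 (54.3%, 49.9 to 58.7) pointed away from the downstream gene and into the gap, over 50% on 12 of 20 chromosomes.

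**Figure D1:**
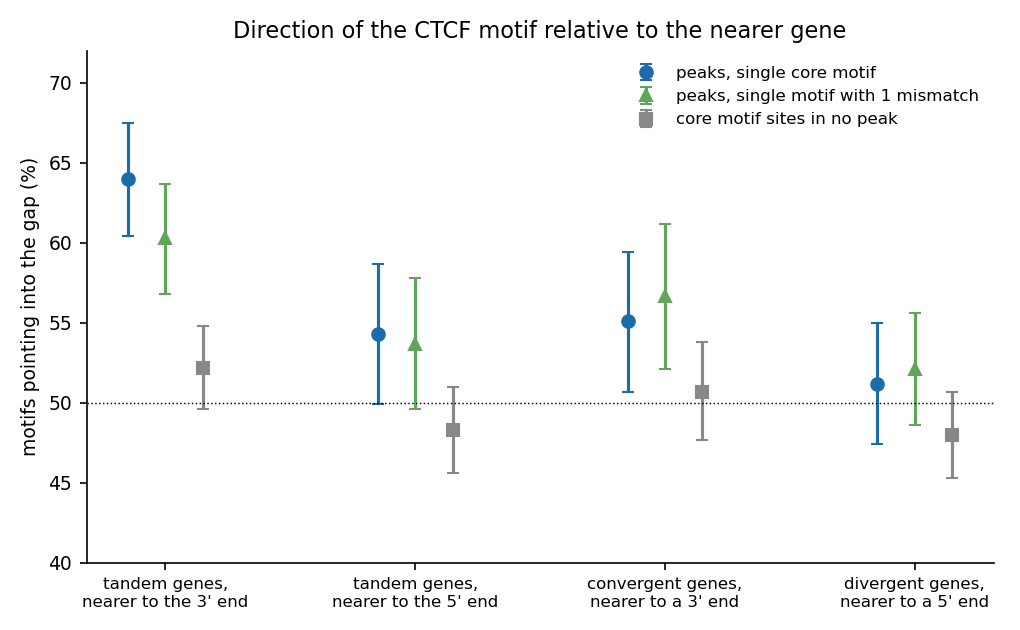
Share of motifs that point into the gap, away from the nearer gene, in percent (y axis), by gene pair and nearer gene end (x axis), with 95% Wilson intervals as bars and a dotted line at 50%. Single core motifs of members nearer to the 3′ end of the upstream gene stand at 64.0%, above core motif sites in no peak of the same sequence at 52.2%.

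The difference between the sides was 9.73 points (4.07 to 15.3). Among core sites in no peak the sides differed in the same direction, by 3.91 points (0.159 to 7.64). Core sites in no peak on the side of the 3′ end pointed into the gap at 52.2% (49.6 to 54.8), 11.8 points below those of members (7.42 to 16.1). On the side of the promoter, sites in no peak did so at 48.3%, 6.01 points below those of members (0.804 to 11.2). Members thus exceeded sites in no peak on both sides, and whether this excess differed between the sides was not tested. A 3′ end is also the nearer gene end between convergent genes, and there 55.1% (50.7 to 59.4) of single cores pointed into the gap, 8.93 points less than next to the 3′ end between tandem genes (3.29 to 14.5). Between divergent genes the share was 51.2%, which differs from that on the promoter side between tandem genes by 3.08 points with an interval of −2.77 to 8.89. Members without a core and with exactly 1 match at 1 mismatch are separate peaks and pointed into the gap at 60.3% (56.8 to 63.7) next to the 3′ end and 53.7% (49.6 to 57.8) next to the promoter. For such mismatched motifs the share next to the 3′ end between convergent genes was 56.7%, and the difference of 3.64 points has an interval of −2.05 to 9.37. Taking only the strongest peak of each gap gave 66.1% (61.9 to 70.2) next to the 3′ end. Counted per site, core motifs nearer to the 3′ end were in a peak at 38.5% when they pointed into the gap and 28.1% when they pointed at the upstream gene, a difference of 10.4 points (6.41 to 14.2). Nearer to the promoter the values were 30.8% and 26.8%, a difference of 4.08 points whose interval, −0.0927 to 8.24, includes 0.

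**Figure D2:**
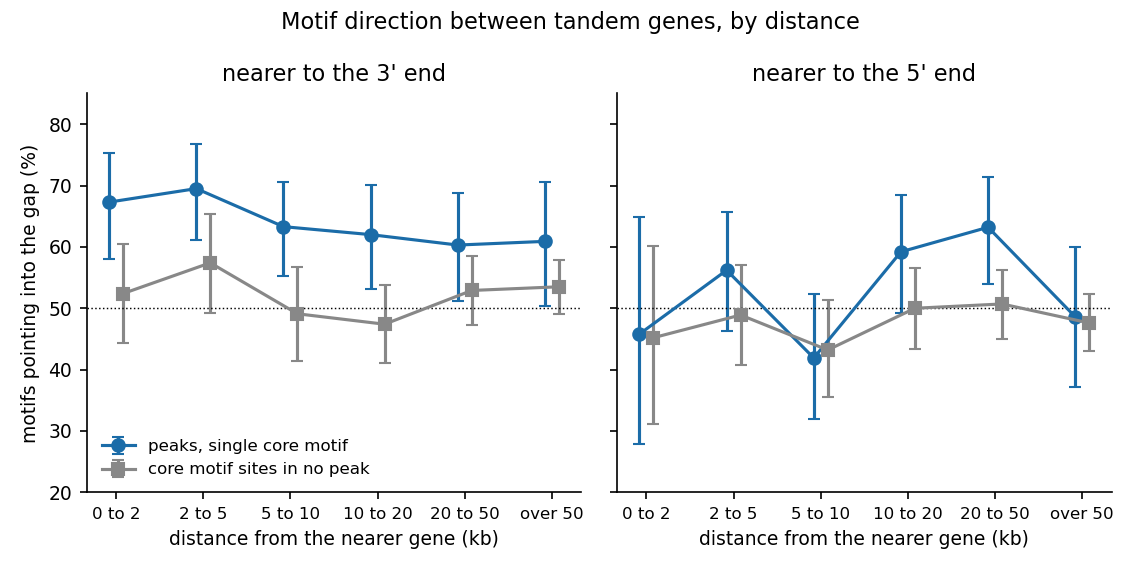
Share of single core motifs of members (circles) and of core motif sites in no peak (squares) that point into the gap, in percent, against distance from the nearer gene in kb, with 95% Wilson intervals. On the side of the 3′ end (left panel) the members stay between 60.3% and 69.5% at all distances, and on the side of the promoter (right panel) they range from 41.9% to 63.2%.

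The share of single cores of members pointing into the gap next to the 3′ end exceeded 50% at each distance. It was 67.3% (58.1 to 75.3) within 2 kb of the 3′ end, 69.5% (61.1 to 76.8) at 2 to 5 kb, 63.3% at 5 to 10 kb, 62.0% at 10 to 20 kb, 60.3% at 20 to 50 kb and 60.9% beyond, and the intervals of neighbouring distances overlap. Core sites in no peak next to the 3′ end stood lower at each distance, from 47.4% (41.1 to 53.8) at 10 to 20 kb to 57.4% (49.2 to 65.3) at 2 to 5 kb. Their intervals overlap those of members in each bin. Overlap alone does not decide whether a bin separates the 2 groups, and intervals of the difference were not computed per bin. Next to the promoter the share of single cores of members went from 41.9% (32.0 to 52.4) at 5 to 10 kb to 63.2% (54.0 to 71.4) at 20 to 50 kb. By strength, the share of single cores on the strand of the genes was 59.3% (55.2 to 63.2) below the median fold enrichment and 54.1% (50.2 to 58.0) at or above it. In the 5 groups by fold enrichment, from weakest to strongest, it was 56.8%, 55.7%, 61.8%, 53.5% and 55.4%, without a steady trend. Sites next to genes of blood cells and of cohesin are shown, with the core in capitals, because they include both directions.
Rps19 to Cd79a (chr7:24890608-24890659, plus strand, strand of the genes, no mismatch): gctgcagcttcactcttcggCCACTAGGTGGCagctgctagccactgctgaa
Lag3 to Cd4 (chr6:124903730-124903781, plus strand, opposite strand, no mismatch): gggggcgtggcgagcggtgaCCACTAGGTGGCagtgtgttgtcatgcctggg
Smc3 to Rbm20 (chr19:53648889-53648940, plus strand, strand of the genes, 1 mismatch): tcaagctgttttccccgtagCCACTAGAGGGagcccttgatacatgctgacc
Ly6c2 to Ly6c1 (chr15:75060689-75060740, minus strand, strand of the genes, no mismatch): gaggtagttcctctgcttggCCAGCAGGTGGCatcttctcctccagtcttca
Grik3 to Csf3r (chr4:125962918-125962969, minus strand, opposite strand, no mismatch): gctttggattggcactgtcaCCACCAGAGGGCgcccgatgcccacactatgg
Tfrc to Tnk2 (chr16:32638637-32638688, plus strand, strand of the genes, no mismatch): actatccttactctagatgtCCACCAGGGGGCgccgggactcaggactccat
At Cd79a, which encodes a chain of the B cell receptor complex, the member (fold enrichment 18.53) lay 803 bp past the 3′ end of Rps19, a ribosomal protein gene, and 6771 bp from the 5′ end of Cd79a, and its core pointed toward Cd79a. At Cd4, the T cell coreceptor gene, the member (16.64) lay 426 bp past the 3′ end of Lag3 and 15713 bp from the 5′ end of Cd4, and its core pointed back at Lag3.

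Members were also placed unevenly along the gap. Of the 3436, 1415 (41.2%, 39.5 to 42.8) were nearer to the 5′ end of the downstream gene than to the 3′ end of the upstream gene, although 50.2% of the eligible sequence was on that side. The median distance was 17542 bp (16474 to 18876) to the 3′ end and 26466 bp (24977 to 27699) to the 5′ end. The rule shapes both distances in part, since it bars sequence within 1 kb of the 5′ end. The share of core motif sites on the promoter side, 45.0% (43.5 to 46.6), was between 41.2% and 50.2%, and that of sites in no peak was 46.9%. The side of the promoter held under 50% of the members on 18 of 20 chromosomes. The median fold enrichment was 10.12 (9.79 to 10.12) on the promoter side and 10.44 (10.12 to 10.77) on the other, and a core was in 35.5% and 36.0%. In the weakest of the 5 groups by fold enrichment 45.6% (42.0 to 49.4) of the members were on the promoter side, and in the strongest 37.1% (33.6 to 40.8), so the shift was larger among strong peaks. The shift held in gaps of 10 to 300 kb and not at the extremes. In gaps of 10 to 30 kb, 38.1% (34.7 to 41.7) of the members were on the promoter side against 46.0% of the eligible sequence, in gaps of 30 to 100 kb 39.8% against 49.5%, and in gaps of 100 to 300 kb 43.8% against 52.6%. In gaps under 10 kb the values were 33.5% (28.1 to 39.3) and 34.1%, and in gaps over 300 kb 49.1% (44.9 to 53.3) and 51.0%.

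**Figure D3:**
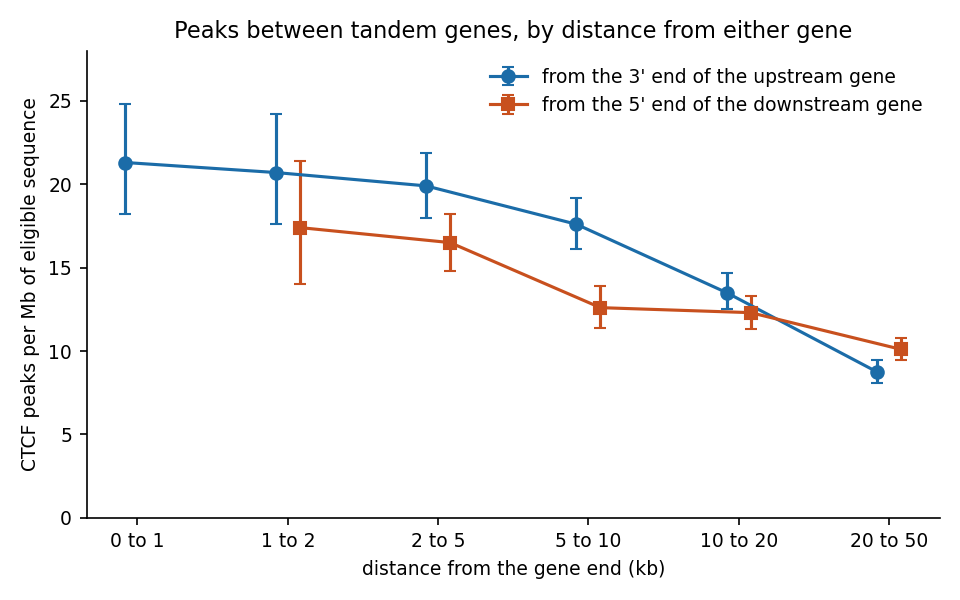
Density of members in peaks per Mb of eligible sequence (y axis) against distance from the 3′ end of the upstream gene (circles) and from the 5′ end of the downstream gene (squares) in kb (x axis), with exact Poisson 95% intervals. At 5 to 10 kb the density was 17.6 per Mb from the 3′ end and 12.6 per Mb from the 5′ end.

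Density fell with distance from either gene. From the 3′ end it was 21.3 peaks per Mb (exact Poisson interval 18.2 to 24.8) in the 0 to 1 kb bin, 19.9 at 2 to 5 kb, 17.6 at 5 to 10 kb, 13.5 at 10 to 20 kb and 8.75 at 20 to 50 kb. From the 5′ end it was 17.4 (14.0 to 21.4) at 1 to 2 kb, 16.5 at 2 to 5 kb, 12.6 at 5 to 10 kb, 12.3 at 10 to 20 kb and 10.1 at 20 to 50 kb. The ratio of 3′ over 5′ was 1.19 (0.913 to 1.56) at 1 to 2 kb, 1.20 (1.04 to 1.39) at 2 to 5 kb and 1.40 (1.22 to 1.60) at 5 to 10 kb. It was 1.10 (0.980 to 1.24) at 10 to 20 kb and fell to 0.863 (0.779 to 0.956) at 20 to 50 kb. At 5 to 10 kb both the number of core sites per Mb (ratio 1.25, 1.09 to 1.45) and the share of them in a peak (11.8 points higher, 4.73 to 18.6) were higher next to the 3′ end. At 2 to 5 kb the site ratio was 1.08 (0.922 to 1.27) and the difference in share 4.17 points (−3.64 to 11.9). At 20 to 50 kb the difference in share, 3′ minus 5′, was −5.45 points (−9.96 to −0.882). The nearest TSS belonged to the downstream gene at 38.1% of members (median distance 8031 bp), to the upstream gene at 10.7% and to a gene of another type, such as a pseudogene or a long noncoding RNA, at 50.3%.

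Density was lower than between divergent genes. Over all gaps it was 7.25 peaks per Mb (7.01 to 7.50) between tandem genes, 7.68 between convergent genes (ratio of tandem to convergent 0.944, 0.885 to 1.01) and 7.98 between divergent genes (ratio 0.909, 0.860 to 0.962). The contrast was clearest in gaps of 10 to 30 kb, where 735 members gave 17.0 per Mb, against 22.8 between convergent genes (ratio 0.747, 0.651 to 0.859) and 24.3 between divergent genes (ratio 0.700, 0.616 to 0.798). In those gaps core sites were also less dense between tandem than between convergent genes (ratio 0.748, 0.644 to 0.871), and the shares of sites in a peak were 46.7% (42.8 to 50.6) and 49.4% (43.2 to 55.6). Against divergent genes the ratio of core site densities was 0.931, with an interval of 0.797 to 1.09. In gaps under 10 kb the densities were 27.0, 27.8 and 26.9 per Mb for tandem, convergent and divergent genes. Above 300 kb the density between divergent genes was 2.30 per Mb, and the ratio of tandem to divergent was 1.04 (0.897 to 1.21). Within tandem gaps density fell with length to 11.9 per Mb at 30 to 100 kb, 7.24 at 100 to 300 kb and 2.39 above 300 kb, and the share of core sites in a peak fell from 48.1% (41.4 to 54.8) in gaps under 10 kb to 15.8% (13.8 to 18.1) above 300 kb.

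**Figure D4:**
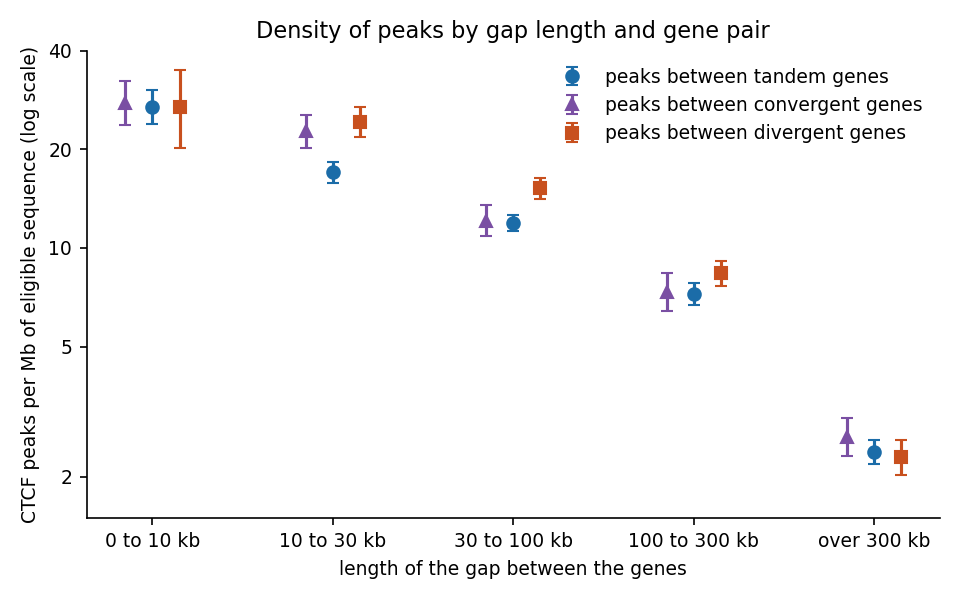
Peaks per Mb of eligible sequence (y axis, log scale) against the length of the gap between the genes (x axis) for tandem, convergent and divergent gene pairs, with exact Poisson 95% intervals. All 3 fall with gap length, and tandem gaps of 10 to 30 kb sit at 17.0 per Mb, below 22.8 and 24.3 for the others.

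A tandem gap with eligible sequence held a member in 2329 of 9242 cases (25.2%), and the gaps with a member were longer, with a median of 45416 bp against 15896 bp. Of these gaps, 1605 held 1 member, 499 held 2 and 136 held 3. Neighbouring members of a gap were a median of 10036 bp apart, and 30.8% of the 1107 neighbouring pairs were within 5 kb. In 150 of the pairs both members had exactly 1 core. These cores had the same direction in 48.0% (40.2 to 55.9), pointed away from each other in 32.7% (25.7 to 40.5) and pointed at each other in 19.3% (13.8 to 26.4). Pairs pointing at each other were a median of 13449 bp apart and pairs pointing away 7904 bp. Of the pairs in the same direction, 48 were on the strand of the genes and 24 on the opposite strand. In 21 gaps 3 or more members had a single core, and the cores shared a direction in 5 of them and were mixed in 16. The number that independent cores would give was not computed for the gaps or for the pairs. The 5 gaps with a shared direction were named after their values were seen. They were Arhgap27 to Map3k14, Gm572 to Casz1 and Saraf to Dusp4 on the strand of the genes, and Cmip to Plcg2 and Zfp36l2 to Haao on the opposite strand.

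The gap with the most members, 24, ran from the 3′ end of Dad1 to the 5′ end of Olfr1507 over 1739729 bp (chr14:52495750-54235478). It spans the T cell receptor alpha and delta genes, whose variable segments GENCODE does not type as protein-coding, so the flanking genes were those beyond the locus. The nearest TSS was that of a variable segment at 23 of the 24 members and of the constant gene Trac at the last. None of the 24 held the core motif without a mismatch, while 17 held it with 1 mismatch. Distances from the nearest start were narrow in range for some segment families and wide for others. The 3 nearest to Trav16 segments lay 1317 to 1421 bp from their starts with a fold enrichment of 12.07 to 14.36, the 4 nearest to Trav14 segments 2042 to 2453 bp away (8.16 to 9.14), and the 3 nearest to Trav15 segments 5022 to 5241 bp away (5.75 to 6.85). The 8 nearest to Trav13 segments ranged from 1953 to 2863 bp (6.20 to 14.03) and the 3 nearest to Trav3 segments from 4378 to 7078 bp (6.20 to 9.79). The locus holds repeated blocks of segments in this strain, and some sites were the same letter by letter. The lines below show 2 such pairs. Their strand labels refer to Dad1 and Olfr1507, the flanking genes, and not to the receptor segments nearest to the sites.
Dad1 to Olfr1507 (chr14:52848140-52848191, minus strand, strand of the genes, 1 mismatch): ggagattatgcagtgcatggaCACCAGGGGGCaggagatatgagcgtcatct
Dad1 to Olfr1507 (chr14:53159179-53159230, minus strand, strand of the genes, 1 mismatch): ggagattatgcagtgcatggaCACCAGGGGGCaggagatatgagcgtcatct
Dad1 to Olfr1507 (chr14:53030401-53030452, plus strand, opposite strand, 1 mismatch): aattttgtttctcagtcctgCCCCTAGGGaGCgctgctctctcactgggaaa
Dad1 to Olfr1507 (chr14:53334622-53334673, plus strand, opposite strand, 1 mismatch): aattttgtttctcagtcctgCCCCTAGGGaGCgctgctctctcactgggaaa
Of 2869 members with a match of up to 1 mismatch and 20 bases on either side inside the peak, 68 shared all of those bases with another member, 8 of them in this gap. The methods of the study state that reads with several places in the genome were kept, and the part of such reads in these values was not tested.

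**Figure D5:**
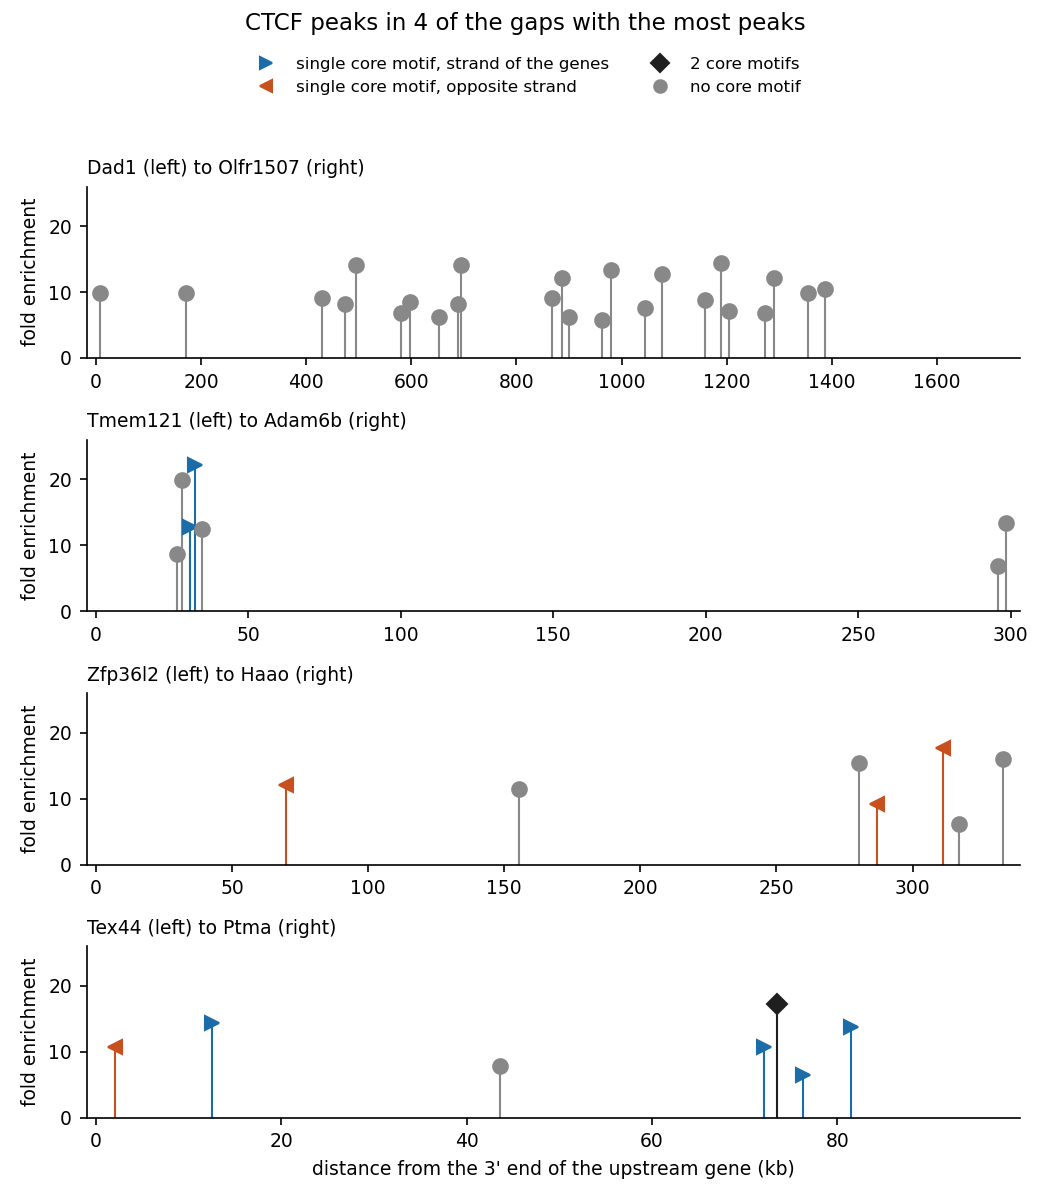
Members in 4 of the gaps with the most members, with distance from the 3′ end of the upstream gene in kb (x axis) and fold enrichment as deposited (y axis). Arrowheads show the direction of a single core motif, a diamond marks 2 cores and a circle marks none. The 24 members between Dad1 and Olfr1507 have no core, and in the gap from Tex44 to Ptma 4 of the 5 single cores are on the strand of the genes.

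Between Tmem121 and Adam6b, a gap that spans the heavy chain constant, joining and diversity segments, the highest of 7 members reached 22.19. There, 5 of them lay 26562 to 34815 bp past the 3′ end of Tmem121, and both with a core had it on the strand of the flanking genes. The other two lay 4217 and 1642 bp from the 5′ end of Adam6b.
Tmem121 to Adam6b (chr12:113216097-113216148, minus strand, opposite strand, 1 mismatch): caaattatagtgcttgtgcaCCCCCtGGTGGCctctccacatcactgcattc
Tmem121 to Adam6b (chr12:113217442-113217493, plus strand, strand of the genes, 1 mismatch): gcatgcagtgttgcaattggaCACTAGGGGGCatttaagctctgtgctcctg
Tmem121 to Adam6b (chr12:113220033-113220084, plus strand, strand of the genes, no mismatch): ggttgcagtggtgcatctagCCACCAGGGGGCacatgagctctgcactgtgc
Tmem121 to Adam6b (chr12:113221388-113221439, plus strand, strand of the genes, no mismatch): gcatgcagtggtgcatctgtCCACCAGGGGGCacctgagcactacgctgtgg
Tmem121 to Adam6b (chr12:113224374-113224425, minus strand, opposite strand, 1 mismatch): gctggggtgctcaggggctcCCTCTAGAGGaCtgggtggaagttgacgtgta
These lines give 1 site for each of the 5 neighbouring members, with fold enrichments of 8.74, 19.90, 12.73, 22.19 and 12.40, and are shown because the core CCACCAGGGGGC stands in 2 of them. Of the 3 sites with a mismatch, the outer ones are on the opposite strand, so the 5 sites do not share a direction. Among the gaps up to 100 kb, that from Tex44 to Ptma, a gene for the chromatin protein prothymosin, held 7 members with fold enrichments of 6.53 to 17.29, 6 of them with a core. Between Cbx5, which encodes heterochromatin protein 1 alpha, and Smug1, a DNA repair gene, 6 members stood in 24451 bp, with fold enrichments of 8.48 to 25.78.

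Gaps between genes of 1 family, taken as flanking symbols that share a stem of 3 or more letters, held members less often. Of 1907 such gaps 158 held a member (8.29%, 7.13 to 9.61), against 2171 of 7335 others (29.6%, 28.6 to 30.7), and the densities were 3.97 per Mb (3.45 to 4.55) and 7.66 (7.40 to 7.93). Olfactory receptor genes (Olfr) made up 680 of these gaps with 11 members (1.04 per Mb, 0.518 to 1.86), and vomeronasal receptor genes (Vmn) 168 gaps with 3 members (0.426 per Mb, 0.0878 to 1.24). Without both receptor families the density was 5.58 per Mb (4.82 to 6.42). Some families were denser than the 7.66 per Mb of the other gaps, but gaps of like length were not compared. Tandem gaps under 10 kb held 27.0 members per Mb and those of 10 to 30 kb 17.0, both within the interval for Krt below. Keratin genes (Krt) had 13 members in 39 gaps (25.6 per Mb, 13.7 to 43.8), Hoxb genes 5 members in 6 gaps (70.2 per Mb, 22.8 to 164) and Apol genes 4 members in 4 gaps (123 per Mb, 33.6 to 316). These are examples, and other families with few gaps reached higher values than Krt. The strongest member in a family gap, with a fold enrichment of 26.07, was between the dehydrogenase genes Dhrs2 and Dhrs4. In the Tcl1b cluster, a family of genes expressed early in development, 2 neighbouring gaps held members of 20.56 and 24.15 with near copies of the same site.
Tcl1b1 to Tcl1b5 (chr12:105174480-105174531, minus strand, opposite strand, 1 mismatch): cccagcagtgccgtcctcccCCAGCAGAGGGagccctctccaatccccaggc
Tcl1b5 to Tcl1b3 (chr12:105189126-105189177, minus strand, opposite strand, 1 mismatch): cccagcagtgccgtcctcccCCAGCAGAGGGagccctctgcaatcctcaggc
Slc38a4 to Slc38a2 (chr15:96936952-96937003, minus strand, strand of the genes, no mismatch): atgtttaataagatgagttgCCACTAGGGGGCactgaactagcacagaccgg
Krt8 to Krt78 (chr15:101984493-101984544, minus strand, strand of the genes, no mismatch): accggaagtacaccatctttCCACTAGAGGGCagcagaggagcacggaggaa

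Of 21755 protein-coding genes, 4312 (19.8%) flanked a member. Among genes grouped by their role in blood, 13 of 31 stem and progenitor genes did so (41.9%, 26.4 to 59.2), among them Gata2, Kit, Runx1, Tal1, Mecom, Flt3 and Cd34, as did 11 of 24 granulocyte and monocyte genes (45.8%, 27.9 to 64.9), among them Cebpa, Cebpb, Cebpe, Elane and Csf3r. Lymphoid genes flanked a member in 8 of 26 cases (30.8%), erythroid genes in 4 of 24 (16.7%), megakaryocyte genes in 2 of 15 (13.3%), genes of CTCF and cohesin in 3 of 19 (15.8%) and Hox genes in 9 of 39 (23.1%). Gap lengths were not compared between these genes and all others. The median fold enrichment of the members was 10.69 next to stem and progenitor genes, 10.93 next to granulocyte and monocyte genes, 11.09 next to lymphoid genes and 8.48 next to erythroid genes, with 20, 16, 11 and 4 members.

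Next to stem and progenitor genes, the member between Plxna2 and Cd34, the gene of a surface marker of progenitors, had a fold enrichment of 22.51 and lay 59073 bp from the 5′ end of Cd34. The member between Ddx1, an RNA helicase gene, and Mycn, a proto-oncogene, had 19.58 and lay 1909 bp past the 3′ end of Ddx1 and 273149 bp from the 5′ end of Mycn. In the gap between Gfi1b, which encodes a repressor needed for erythroid and megakaryocyte cells, and Gtf3c5, a gene for a subunit of an RNA polymerase III factor, 2 members had fold enrichments of 19.37 and 18.93, neither with a core unless 1 mismatch was allowed. No member flanked Alas2, the gene for the erythroid enzyme of heme synthesis. The member past the adult beta-globin gene Hbb-bt, which ends the cluster, had 9.14, and that at the transferrin receptor gene Tfrc 7.83 with the core CCACCAGGGGGC. At Smc3, a cohesin subunit gene, the member had 21.86 and lay 3186 bp past the 3′ end, and at Cebpe, a granulocyte factor gene, it had 17.62 at 8854 bp past the 3′ end. Among Hox genes the strongest member, with 15.01, was between Hoxb13 and Hoxb9, and the member between Hoxb5 and Hoxb4 had 8.81.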

How the data were processed

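The study's authors mapped ChIP-seq reads of 1 CTCF library of LSK cells to mm10 with Bowtie (1.0.0 in the submitters' processing notes, another version in the methods, which was not reconciled) and called peaks with MACS. Reads with several places in the genome were allowed. The settings of MACS and its use of the input are not stated in those sources. The deposited list has no header. From the order of columns in the broadPeak layout and from the values, the deposited columns were read as fold enrichment, a linear ratio to background, and as −log10 p-values, which start at 5.001. A further column, read as a false discovery rate, was not used, since its scale is not stated. The list gives no read counts, and the depth of the library, which the study lists, was not used here.

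Peaks were set against GENCODE M21 and the GRCm38.p6 sequence, whose chromosome lengths held all genes and peaks, with pandas 2.3.3, scipy 1.17.1 and numpy 2.4.6 under Python 3.11.15. Plots were drawn in matplotlib 3.10.9. Coordinates are 1-based. Eligible sequence is every base that could be the midpoint of a peak of median width (357 bp to either side) under the rule, unknown bases left out. A fold enrichment or share has no replicate, so no p-value was computed across peaks. Shares have Wilson intervals, differences Newcombe intervals, densities exact Poisson intervals and ratios of densities exact conditional intervals, all at 95% and not adjusted for the number of comparisons. The steps were tested on simulated data. The members, gene lists, motifs and family stems were chosen with earlier results of these data known.

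Genes named are those next to the 10 members with the highest fold enrichment, in 5 gaps with the most members (3 of the 4 tied at 7 members were taken), next to up to 4 members in each gene list, next to the 10 strongest members in family gaps, and Gfi1b, Gtf3c5 and Alas2. Only some are printed. Gaps named outside this rule (Cbx5 to Smug1, gaps whose cores share a direction, and members at the limits of the rule), the printing of sites with 1 mismatch and the split of motif direction by side of the gap were added after the values were seen. Alternatives were a stricter threshold, other placement, TSS distances and motif settings, the strongest peak of each gap, merged peaks, other genes and shorter gaps.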

Additional observations from a re-analysis of the deposited data

How the results depend on the processing

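No paired analysis was possible because there was 1 library, and for the same reason no replicate could be left out. Of 45 values recomputed under 13 alternatives, 33 stayed within the interval of the reported value (for the count, within 1.5 times). None put the strand share under 50% or the promoter side share over 50%. The share of eligible sequence on the promoter side was not recomputed, so the shift against that sequence was not tested under the alternatives. With only the 9473 peaks at or above the median −log10 p-value of 12.617, the number of members was 1762, the share with a core 41.1%, the share on the promoter side 38.9%, the median fold enrichment 13.38, the density 3.72 per Mb and the share of core sites in a peak 18.8%; fewer peaks entered. The share with a core was 84.0% with 1 mismatch and 32.6% in the central 200 bp, and the share of sites in a peak was 4.60% with 1 mismatch, where 79360 sites were searched. The strongest peak of each gap gave a median fold enrichment of 11.42. The gap between the nearest genes of any type gave 43.6% on the promoter side, and the cause was not tested. Gaps up to 100 kb alone gave a density of 14.3 per Mb. The share of single cores pointing into the gap next to the 3′ end was between 61.9% and 66.1% in all alternatives run for it, which were added after the values were seen, among them 64.3% without family gaps and 64.9% without cores in repeats. Depth limits what a missing peak shows: a core site in no peak may be bound below the authors' threshold.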
